A study of Mus musculus with 6 samples.

Results

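The genes described here are 9 markers of the endocrine cells of the pancreatic islet other than the beta cell. They are the hormone genes Gcg, Sst, Ppy, Pyy, Ghrl and Gast, the carrier protein gene Ttr, and the homeobox genes Irx2 and Hhex. They were taken by gene symbol from a count table of 55487 genes, and each of the 9 symbols had a row. The study measured RNA in MIN6, a mouse insulinoma line that secretes insulin and is labelled as a pancreatic beta cell. All 6 libraries came from cells grown to confluency and transfected with Lipofectamine. In 3 of them the plasmid carried full-length PTHrP (parathyroid hormone-related protein, encoded by Pthlh) and in 3 it was the DsRed vector without PTHrP, and RNA was collected within 3 days. The transfection was transient, the share of cells that took up a plasmid is not given in the sources used here, and no untransfected cells were analysed here.

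Islet endocrine cells are told apart by the hormone they store. Alpha cells make glucagon, cut from the product of Gcg, delta cells make somatostatin from Sst, PP cells make pancreatic polypeptide from Ppy, and epsilon cells make ghrelin from Ghrl. Peptide YY, from Pyy, is made in some islet cells and in gut endocrine cells. Gastrin, from Gast, is made in the fetal pancreas and in G cells of the stomach. Beta cells normally hold the genes of the other lineages low, and tumour-derived lines can express some of them.

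The promoters of Gcg, Sst and Irx2 are shown because they stand for the 3 outcomes below, an abundant hormone gene, a hormone gene with almost no reads, and the gene with the largest estimated difference among those with more than 100 counts in every library. Each is the 250 bases before the transcription start, read 5′ to 3′ on the gene's strand, from RefSeq on GRCm38.p6, in which 8 of the 9 genes had an entry and Ttr did not. The Gcg sequence lies at chr2:62483654-62483903 (minus strand), the Sst sequence at chr16:23890845-23891094 (minus strand) and the Irx2 sequence at chr13:72628570-72628819 (plus strand). Gene positions given below are from GENCODE, whose span of Sst reaches 23890958, so the Sst window lies partly inside that span. Capitals mark matches on either strand to the cAMP response element TGACGTCA, its core TGACG, the homeodomain core TAAT and the TATA box TATAAA.
Gcg: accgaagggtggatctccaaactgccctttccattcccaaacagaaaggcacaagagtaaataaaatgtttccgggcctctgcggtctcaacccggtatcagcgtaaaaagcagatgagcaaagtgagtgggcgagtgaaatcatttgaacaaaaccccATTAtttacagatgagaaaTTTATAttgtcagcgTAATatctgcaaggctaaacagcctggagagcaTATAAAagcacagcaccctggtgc
Sst: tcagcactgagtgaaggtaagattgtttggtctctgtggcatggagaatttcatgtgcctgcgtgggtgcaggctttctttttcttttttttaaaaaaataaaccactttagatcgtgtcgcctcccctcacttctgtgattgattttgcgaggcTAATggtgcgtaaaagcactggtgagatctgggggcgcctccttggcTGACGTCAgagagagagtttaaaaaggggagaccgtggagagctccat
Irx2: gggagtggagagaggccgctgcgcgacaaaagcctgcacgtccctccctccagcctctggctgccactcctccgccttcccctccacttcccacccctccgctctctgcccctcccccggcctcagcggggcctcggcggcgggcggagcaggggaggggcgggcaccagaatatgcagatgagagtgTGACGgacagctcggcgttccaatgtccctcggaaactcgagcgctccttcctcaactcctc

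The Gcg window held TAAT 2 times and TATAAA 2 times, 1 of each in reverse orientation, and the forward TATAAA began 24 bases before the start. The Sst window held 1 TAAT, and TGACGTCA beginning 48 bases before the RefSeq start. This TGACGTCA contains the core on both strands and lies inside the GENCODE span of Sst. The Irx2 window held the core TGACG 62 bases before the start and none of the other letters searched. Of 32851 promoter windows of this length, 1.55% held TGACGTCA, 17.8% held TGACG, 54.9% held TAAT and 12.4% held TATAAA. Among the 8 genes with an entry, TGACGTCA was found for Sst alone. These matches describe letters in a window and were not tested as sites.

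Library totals ran from 84427033 to 94613684 counts, and 21141 genes passed the filter on low counts. The transfected gene, Pthlh, checks the labels: with PTHrP it had 697, 553 and 797 counts, with DsRed 0, 4 and 8. PTHrP replicate 2 stood apart from the other 5 libraries, with a chi-square per gene of 46.1 to 56.5 against each of them, where the other pairs gave 8.25 to 31. Values for Gcg, Ttr and Irx2 are therefore also given without it. The label of a beta cell line was matched by its markers: the 12 beta cell genes examined, among them Ins1, Ins2, Iapp, Pdx1 and Slc2a2, all passed the filter, and their summed level was 50886 to 57033 CPM with PTHrP and 52114 to 64137 CPM with DsRed. CPM is a gene's count scaled to a common library total with TMM factors, and levels compared between genes are CPM per kb of annotated exon.

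The 9 genes differed widely in level. Ttr and Gcg lay near the top of all genes, Irx2 lay in the middle, and Gast, Pyy, Sst, Ghrl, Ppy and Hhex lay near or at the limit of detection. Mean levels over the 6 libraries were 184 ± 17.8 CPM per kb for Ttr and 103 ± 10.0 CPM per kb for Gcg (SD, n = 6). Among 21119 tested genes with a known length these ranked 152 and 392. Irx2 had 0.727 ± 0.208 CPM per kb (SD, n = 6), a rank of 12532. The remaining means ran from 0.172 CPM per kb for Gast to 0.029 CPM per kb for Hhex.

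Neighbours in this order did not all differ beyond their spread. Every library had more Ttr than Gcg per kb, with a lowest Ttr value of 158 against a highest Gcg value of 117 CPM per kb. Gcg exceeded Irx2 by 142 times in the mean and in all 6 libraries. The lowest Irx2 value, 0.449 CPM per kb, was just above the highest Gast value, 0.434 CPM per kb, and below the highest Pyy value, 0.549 CPM per kb in PTHrP replicate 3. From Gast downwards the ranges of neighbouring genes overlapped, so that the order of the last 6 genes is not resolved at this depth. In a bulk library, a few cells with much of a transcript and many cells with little cannot be told apart, and fewer cells of a type cannot be told apart from less RNA per cell.

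**Figure D1:**
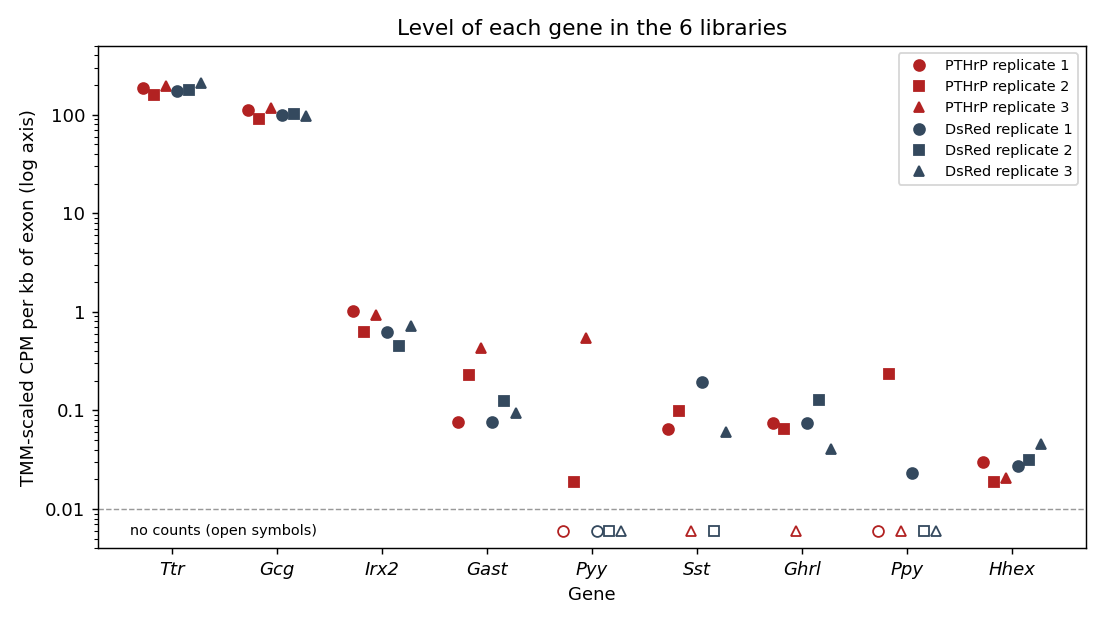
Level of each of the 9 genes in each library, as TMM-scaled CPM per kb of exon on a log axis, with open symbols below the dashed line for libraries with no counts. Ttr and Gcg sit between 90.4 and 208 in all 6 libraries, Irx2 between 0.449 and 1.01, and no value of the remaining 6 genes is above 0.549.

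Gcg encodes proglucagon, which prohormone convertases cut into glucagon in alpha cells and into GLP-1 in gut L cells. It lies on chromosome 2 at 62474530 to 62483650 (GRCm38), on the minus strand, with 1494 bases of exon. With PTHrP, Gcg had 14371, 11483 and 16685 counts, and with DsRed 12728, 13395 and 13185 counts. In CPM these were 167, 135 and 175 with PTHrP and 147, 153 and 144 with DsRed. PTHrP replicate 2 was the lowest of all 6 libraries and the other PTHrP libraries were the highest, so the groups overlapped. The means were 159 ± 21.2 and 148 ± 4.47 CPM (SD, n = 3). The log2 fold change, PTHrP minus DsRed, was 0.10 with an approximate 95% interval of -0.09 to 0.29 (edgeR quasi-likelihood test, adjusted p = 0.782). This interval spans a ratio of 0.941 to 1.23. Without PTHrP replicate 2 the log2 fold change was 0.21 (adjusted p = 0.0667), and it was 0.03 to 0.13 when any other library was left out.

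Set against insulin, Gcg was a minor hormone transcript. Its level per kb was 0.441%, 0.323% and 0.433% of that of Ins2 in the PTHrP libraries and 0.388%, 0.398% and 0.297% in the DsRed libraries. The lowest ratios were in PTHrP replicate 2 and DsRed replicate 3. Ins1 and Ins2 are closely related genes, and stretches shared between them were not searched for. The rule for reads with several matches is not given, so their own counts may be uncertain. Set against the 5 other hormone genes of this group, Gcg was nearly the whole signal. It took 99.69% (95% exact Clopper-Pearson interval 99.59 to 99.77) of the summed counts of Gcg, Sst, Ppy, Pyy, Ghrl and Gast in PTHrP replicate 3, the library with the lowest share, and 99.91% (99.84 to 99.95) in DsRed replicate 3, the highest. These intervals cover counting error only.

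**Figure D2:**
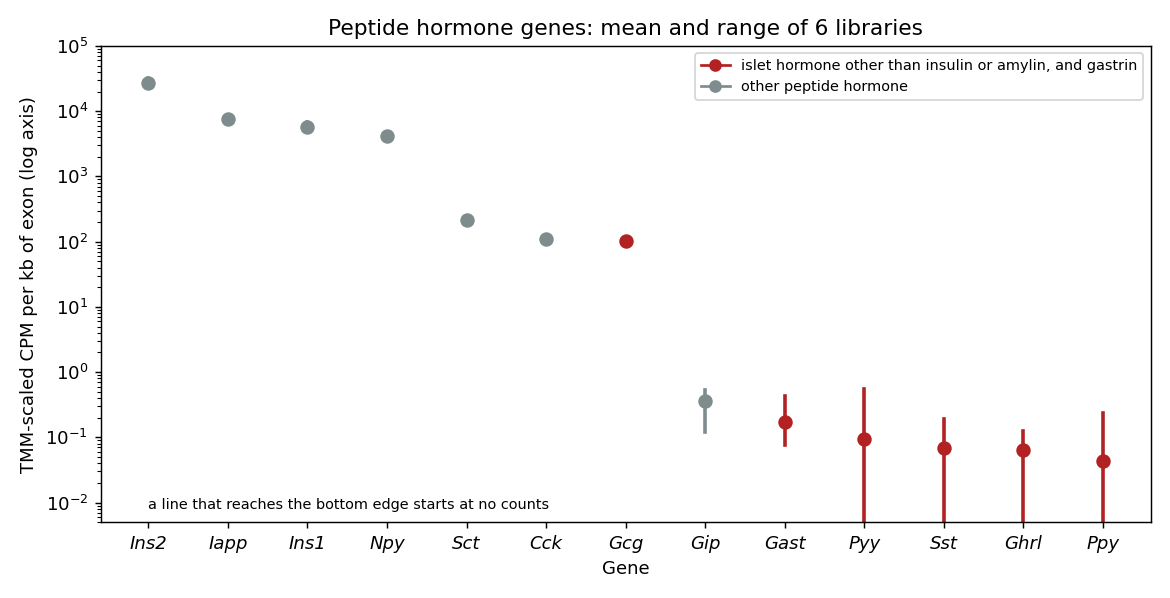
Peptide hormone genes chosen after their values were seen, as mean (point) and range (line) of TMM-scaled CPM per kb of exon over the 6 libraries, on a log axis. Gcg is at 103, below Ins2, Iapp, Ins1, Npy, Sct and Cck in the mean, and the other 5 genes drawn in red are at 0.172 or lower.

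Ttr encodes transthyretin, a carrier of thyroid hormone and of retinol-binding protein that is abundant in liver and choroid plexus and is high in alpha cells within the islet. Its gene is on chromosome 18 at 20665280 to 20674321, with 1186 bases of exon. It had 223, 187 and 234 CPM in the PTHrP libraries and 207, 212 and 247 CPM in the DsRed libraries. The lowest library was again PTHrP replicate 2, while the highest was DsRed replicate 3, and the groups overlapped. The means were 214 ± 24.3 and 222 ± 21.7 CPM (SD, n = 3), a log2 fold change of -0.05 with an interval of -0.26 to 0.15 (edgeR, adjusted p = 0.91). Its sign turned without PTHrP replicate 2 (0.04) and without DsRed replicate 3 (0.03). The ratio of Gcg to Ttr per kb was 59.5%, 57.4% and 59.6% with PTHrP and 56.4%, 57.2% and 46.3% with DsRed. Every PTHrP library had a higher ratio than any DsRed library, by a margin of 57.4% against 57.2% at the nearest, and DsRed replicate 3 was the lowest. The means were 58.8 ± 1.28% and 53.3 ± 6.07% (SD, n = 3), with a two-sided exact permutation p of 0.1, the smallest that 3 against 3 libraries can give, and 0.6 after Benjamini-Hochberg adjustment over the 6 ratios computed.

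Irx2, an Iroquois homeobox transcription factor used as an alpha cell marker, had the largest estimated difference among the members with more than 100 counts in every library. It lies on chromosome 13 at 72628820 to 72634198, with 3282 bases of exon. It had 284, 174 and 291 counts with PTHrP and 179, 129 and 216 counts with DsRed, or 3.3, 2.05 and 3.06 CPM against 2.07, 1.47 and 2.36 CPM. PTHrP replicates 1 and 3 lay above all DsRed libraries, and PTHrP replicate 2 lay below DsRed replicates 1 and 3. The means were 2.8 ± 0.664 and 1.97 ± 0.453 CPM (SD, n = 3), a log2 fold change of 0.51 with an interval of -0.02 to 1.03 (edgeR, adjusted p = 0.571). The unadjusted p of this edgeR test was 0.0562. Without PTHrP replicate 2 the log2 fold change was 0.69 (adjusted p = 0.173), and leaving out any other library gave 0.34 to 0.66. The difference did not pass the test, and the interval reaches a ratio of 2.05.

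**Figure D3:**
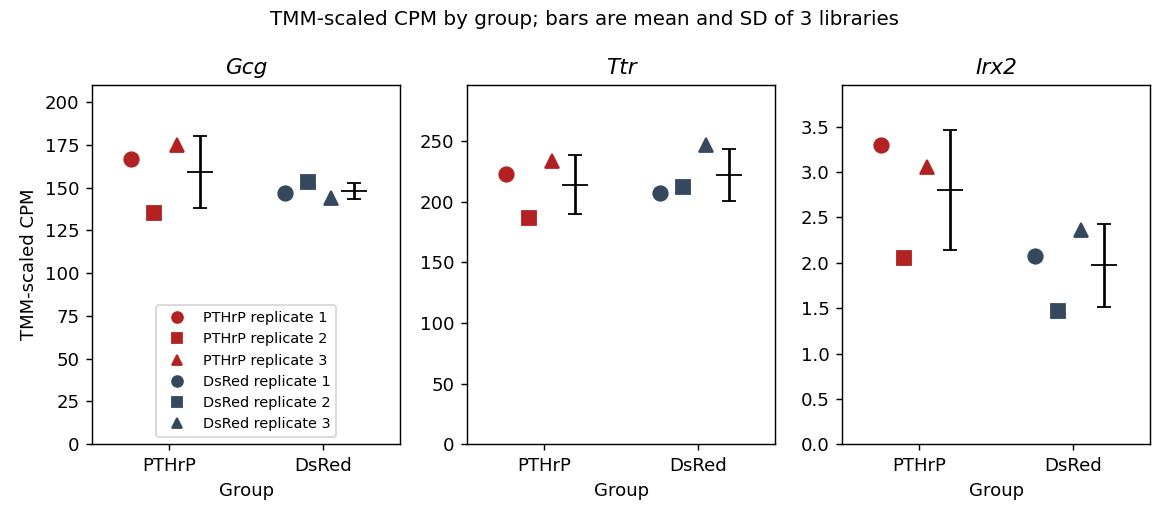
TMM-scaled CPM of Gcg, Ttr and Irx2 in each library by group, on linear axes from 0, with the mean and SD of 3 libraries as black bars. PTHrP replicate 2 (square) is the lowest library for Gcg at 135 and for Ttr at 187, and the groups overlap in all 3 panels.

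The delta cell markers among the members, Sst and Hhex, were close to the limit of detection. Sst, the somatostatin gene, whose product inhibits insulin and glucagon secretion, lies on chromosome 16 at 23889573 to 23890958. With PTHrP it had 4, 6 and 0 counts, and with DsRed 12, 0 and 4. A library with counts and one without occurred in both groups. Summed over a group this was 10 counts with PTHrP, or 0.0376 CPM unscaled (95% exact Poisson interval 0.018 to 0.0692), and 16 counts with DsRed, or 0.0601 CPM (0.0343 to 0.0976). These intervals cover counting error only and not the spread between libraries. Hhex, a homeobox gene needed for delta cell differentiation, lies on chromosome 19 at 37434810 to 37440731. It had 13, 8 and 10 counts with PTHrP and 12, 14 and 21 counts with DsRed, enough to be tested. The log2 fold change was -0.59 with an interval of -2.10 to 0.92 (edgeR, adjusted p = 0.856), which spans ratios of 0.233 to 1.9.

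The neighbouring peptide genes Ppy and Pyy each had most of their counts in 1 library. Ppy and Pyy are neighbours on chromosome 11, at 102099930 to 102101319 and 102106676 to 102107832, with 5356 bases between them. Ppy had 0, 10 and 0 counts with PTHrP and 1, 0 and 0 with DsRed. Pyy had 0, 1 and 33 counts with PTHrP and 0 in each DsRed library. PTHrP replicate 2 therefore held 10 of the 11 Ppy counts and PTHrP replicate 3 held 33 of the 34 Pyy counts. The 2 neighbouring genes were not high in the same library. A library with no counts allows up to 3 counts, which is 0.0317 to 0.0355 CPM in these libraries.

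Ghrl and Gast completed the low group. Ghrl, the gene of the appetite and growth hormone-releasing peptide ghrelin, lies on chromosome 6 at 113716119 to 113719880. It had 7, 6 and 0 counts with PTHrP and 7, 12 and 4 counts with DsRed. Its exons share 169 bases with Gm44033 and 3 bases with Gm26982 on the opposite strand, which had 0 to 6 and 10 to 72 counts per library, and without strand, reads from either gene cannot be told apart. Gast, the gene of gastrin, which stimulates gastric acid secretion, lies on chromosome 11 at 100334407 to 100336996. It had 3, 9 and 19 counts with PTHrP and 3, 5 and 4 counts with DsRed. PTHrP replicates 2 and 3 were above all DsRed libraries, and PTHrP replicate 1 tied with the lowest of them. Summed counts were 31 with PTHrP, 0.117 CPM (95% exact Poisson interval 0.0792 to 0.166), and 12 with DsRed, 0.0451 CPM (0.0233 to 0.0787), intervals that cover counting error and not the spread between libraries. For these 5 low hormone genes, two-sided exact permutation tests on CPM gave unadjusted p = 0.9 for Sst, 1 for Ppy, 0.4 for Pyy, 0.5 for Ghrl and 0.3 for Gast, where 3 against 3 libraries cannot go below 0.1.

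**Figure D4:**
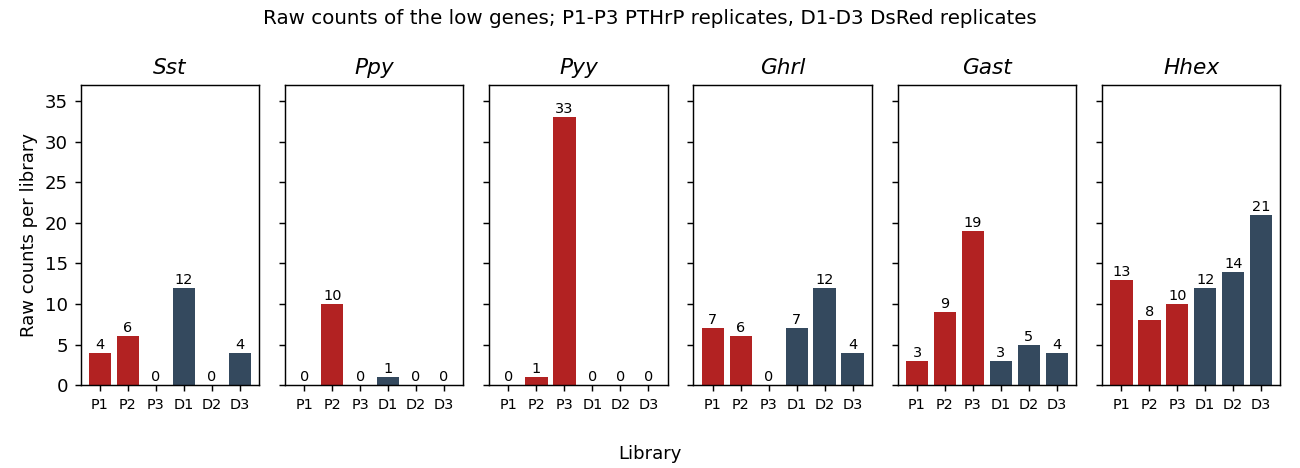
Raw counts of the 6 low genes in each library, P1 to P3 for the PTHrP replicates and D1 to D3 for the DsRed replicates. No gene exceeds 33 counts, and the highest bar of Pyy and of Ppy is in a different PTHrP library.

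No member passed the test between the groups, which in the main fit could be run for only 4 of the 9. A gene that did not pass may still differ. Of the 9, 4 had enough counts (Gcg, Ttr, Irx2 and Hhex) and none of these passed at an adjusted p of 0.05 in edgeR, where 0.0426% of all 21141 genes tested passed. None had an unadjusted p under 0.05, against 8.9% of all genes, and none had groups that did not overlap, against 16.3%. DESeq2, which gave Hhex no adjusted p, and limma-voom also called none, with none at an unadjusted p under 0.05. With edgeR, 2 of the 4 were under 0.05 unadjusted without PTHrP replicate 2, beside 2897 of all 22316 genes tested in that setting. Without DsRed replicate 3 it was 1 of the 4, beside 1834 of 22258 genes. With the replicate number as a block it was also 1 of the 4, beside 1660 of 21141 genes. None of these members passed after adjustment. The median log2 fold change of the 4 was 0.03, beside -0.01 over all genes. Without a filter on low counts all 9 could be fitted and none passed. Irx2 and Pyy were at an unadjusted p under 0.05 (edgeR), beside 2907 of all 44413 genes in that setting, and 33 of the 34 Pyy counts came from PTHrP replicate 3. The labels do not state separate cultures for the replicates, and the spread between libraries that the p-values rest on may be technical.

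**Figure D5:**
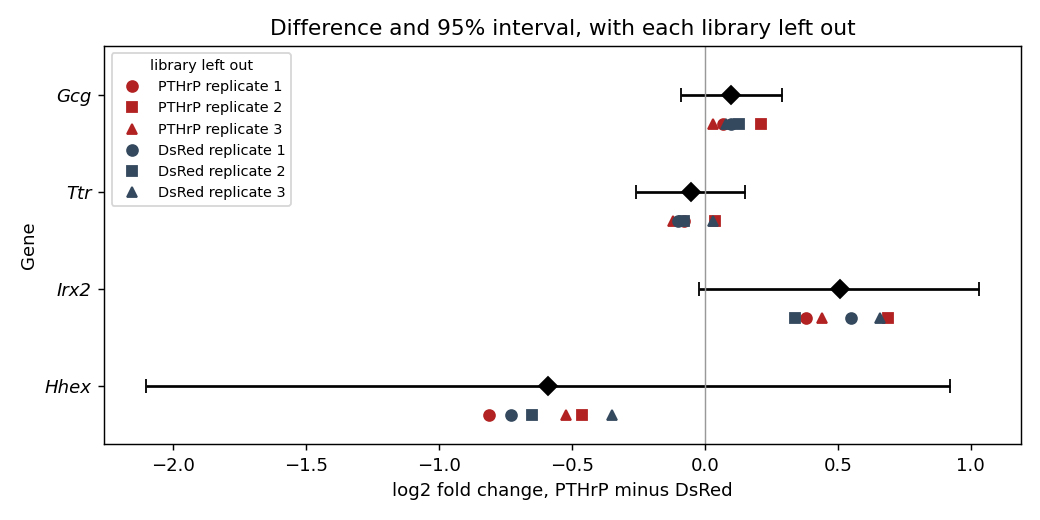
Log2 fold change of the 4 tested genes, PTHrP minus DsRed, as black diamonds with approximate 95% intervals, and below each the value with 1 library left out. All 4 intervals include 0, and only Ttr changes sign when a library is left out.

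The libraries in which Gcg and Ttr were high or low could be set beside all other genes. Over the 6 libraries, the log2 CPM profiles of Dele1, H2ax and Orai2 were nearest to that of Gcg, with root mean square distances of 0.0137, 0.0289 and 0.0295 among 7938 candidates whose mean log2 CPM reached 4. Ttr came at place 2396 in that order (0.125). Nearest to Ttr were Leprotl1, Akap9 and Cltc, with distances of 0.0256, 0.0301 and 0.0324. For Irx2 they were Pced1a, Foxp2 and Abca1, at 0.228, 0.23 and 0.232. These distances describe 6 libraries, which share their scaling, and were not tested.

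Other genes of the alpha cell programme were uneven in level. Of 14 alpha cell genes beside the members, 12 had enough counts and none passed. Irx1, an Iroquois homeobox gene like Irx2, did not have enough, with 0 to 10 counts. By contrast the amino acid transporter genes Slc38a5 and Slc7a2, which alpha cells also express, had 962 and 34.5 CPM per kb in the mean. The 12 had a median log2 fold change of 0.01, and the smallest p in the list was that of Slc7a2, with a log2 fold change of 0.09 (edgeR, adjusted p = 0.757). It was 0.18 without PTHrP replicate 2 (edgeR, adjusted p = 0.0769), 0.03 without PTHrP replicate 1 and 0.06 without PTHrP replicate 3. Slc38a5 and Irx1 were named after their values were seen.

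Delta, PP and epsilon cell genes gave no call. None of 12 tested delta cell genes of 13 passed, with a median of -0.04. This list shares Pdx1 with the beta cell genes above, so its median does not describe delta cell genes alone. Pcsk1, a prohormone convertase that also acts in beta cells, had 309 ± 14 CPM with PTHrP and 358 ± 26.4 CPM with DsRed, a log2 fold change of -0.21 (SD, n = 3; edgeR, adjusted p = 0.374). Of 9 PP and epsilon genes 4 were tested and none passed, and Mboat4, the enzyme that acylates ghrelin, had 0 to 6 counts. Among 21 transcription factors of islet lineage choice 18 were tested and none passed, with a median of -0.10. Neurog3, which starts endocrine differentiation, had 8 counts in PTHrP replicate 1, 1 in DsRed replicate 1 and 0 elsewhere. Neurod1, a factor of endocrine maturation, had a log2 fold change of -0.22 (edgeR, adjusted p = 0.303), which passed without PTHrP replicate 2 (-0.23, adjusted p = 0.0375). Leaving out that library raised the count of all genes that passed from 9 to 213.

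Receptors for these hormones were unevenly represented. Of 15, 8 had enough counts and none passed, with a median log2 fold change of -0.17. Glp1r, the receptor for the Gcg product GLP-1, was at 219 CPM per kb, with a log2 fold change of -0.04 (edgeR, adjusted p = 0.861), and -0.08 to -0.02 when 1 library was left out. Gcgr, the glucagon receptor, had 0 to 19 counts. Sstr3, an inhibitory somatostatin receptor, had 48.7 ± 2.22 CPM with PTHrP and 57.7 ± 3.75 CPM with DsRed, a log2 fold change of -0.24 (SD, n = 3; edgeR, adjusted p = 0.37). The receptors of the pancreatic polypeptide family, Npy1r, Npy2r, Npy4r and Npy5r, all lacked enough counts for a test, with at most 22 in a library.

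Enzymes that process peptide hormones were mostly abundant. Of 12, 10 were tested and none passed, with a median of 0.02. Pcsk2, the convertase that releases glucagon from proglucagon, was at 412 CPM per kb, and Pcsk1, which releases GLP-1, at 59.5 CPM per kb. Of 11 partners of transthyretin in retinol and thyroid hormone transport 10 were tested and none passed, with a median of 0.06. Rbp4, the retinol-binding protein that transthyretin carries, had a log2 fold change of 0.20 (edgeR, adjusted p = 0.544), which was 0.11 without PTHrP replicate 2 (adjusted p = 0.533).

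Markers of cells outside the endocrine lineage were low. The summed level of 10 acinar genes was 6.17 to 7.43 CPM with PTHrP and 8.87 to 11.9 CPM with DsRed, with Ptf1a and Amy2a5 at 0 in all 6 libraries. Sums for 7 duct, 7 fibroblast and stellate, 5 endothelial and 6 macrophage and leukocyte genes were 1.96 to 7.68 CPM with PTHrP and 2.69 to 9.35 CPM with DsRed, and no tested gene of these 5 lists passed. The acinar, fibroblast and leukocyte sums were lower in every PTHrP library than in any DsRed library. The fibroblast sum was 4.69 to 4.99 against 5.14 to 5.52 CPM and the leukocyte sum 1.96 to 2.4 against 2.69 to 3.06 CPM. Bhlha15, the largest acinar gene, averaged 4.09 CPM with PTHrP and 7.26 CPM with DsRed (edgeR, adjusted p = 0.234). The largest fibroblast gene, Col1a2, averaged 3.69 and 3.7 CPM, and the largest leukocyte gene, Cd68, 1.44 and 1.23 CPM. Log2 fold changes were negative for 5 of 5 tested acinar, 5 of 6 fibroblast and 3 of 4 leukocyte genes. The duct and endothelial sums overlapped. The part of these differences in the values of the 9 genes was not tested.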

How the data were processed

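The deposited values are raw gene counts per library. Per the submitters' processing notes, bcl2fastq, STAR, Subread and featureCounts 2.0.3 were used on GRCm38. Annotation, strand setting and the rule for reads with several matches: not given in the sources used here. The table had 55774 entries, and 287 repeats of 168 identifiers, with identical counts, were dropped. Genes were filtered with filterByExpr, scaled with TMM and tested by group with edgeR 4.0.16 in R 4.3.3 (robust quasi-likelihood F-test, two-sided, Benjamini-Hochberg adjustment over 21141 genes, threshold 0.05), a step tested on simulated data. The SE behind each interval is the absolute log2 fold change over the root of F. Levels of genes that failed the filter use the same factors. Exon lengths are unions of GENCODE M21 exons on GRCm38. DESeq2 1.42.0 and limma-voom 3.58.1 were alternatives. No 50-base stretch of Gcg, Ttr, Sst, Ppy, Pyy or Gast occurred in transcripts of another gene. Irx2 shared 16 of 3324 such stretches with Irx5, Hhex 11 of 5144 with Gm33936 and Gm38078, and Ghrl 120 of 1211 with Gm44033. The members and lists were chosen with earlier results of these data known. Beside the 9 members, the rule for named genes allowed up to 4 with the smallest p of each list and, the 3 nearest profiles of each member whose mean log2 CPM reached 1 (prior count 2). Genes at the limit of detection and genes given by level alone were named after their values were seen. Some genes of the lists are counted but not reported here by name.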

Additional observations from a re-analysis of the deposited data

How the results depend on the processing

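No member that could be tested passed in any of the 13 alternatives. The count of all genes that passed, 9, became 14 with library sizes alone, 220 without a filter on low counts and 104 with DESeq2, and 2 to 213 when 1 library was left out, the 213 without PTHrP replicate 2. RLE factors gave 9, at least 1 CPM in 3 libraries gave 11, limma-voom gave 9 and the replicate block gave 7. With the replicate block the log2 fold change of Gcg was 0.09 and of Irx2 0.51. No member passed with the block, and 1 was under an unadjusted p of 0.05, beside 1660 of all 21141 genes. Deviations from the group mean correlated between same-numbered libraries at 0.0235, -0.106 and 0.0246. Between differently numbered libraries they correlated at -0.155 to 0.131. With 3 libraries per group these values cannot decide whether the replicate numbers pair the libraries. The median over the members tested ranged from -0.05 to 0.12. Gcg and Irx2 kept positive values in all 13 alternatives (0.03 to 0.21 and 0.34 to 0.69), and Hhex negative ones in the 12 that fitted it (-0.81 to -0.35). Ttr turned to 0.04 without PTHrP replicate 2 and to 0.03 without DsRed replicate 3, with a lowest value of -0.12. The CPM difference of Sst turned to 0.0171 without DsRed replicate 1 (lowest -0.0524) and that of Ppy to -0.00385 without PTHrP replicate 2 (highest 0.0549). Leaving out PTHrP replicate 3 took the CPM difference of Pyy from 0.119 to 0.00584. With 1 library left out, that of Gast (0.0683) ranged from 0.0249 without PTHrP replicate 3 to 0.108 without PTHrP replicate 1, and that of Ghrl (-0.0366) from -0.0583 without DsRed replicate 3 to -0.0114 without PTHrP replicate 3. Counts of at most 33 per library limit the 6 low genes, and the cause of these movements was not tested.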

Other observations

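Of 13 genes of gut endocrine and neuronal hormones or their synthesis with a row, 3 (Npy, Sct and Cck) were abundant in these libraries and were singled out after their values were seen, while none of the other 10 averaged more than 0.806 CPM per kb. Npy, the neuropeptide Y gene and the third member of the family of Ppy and Pyy, was at 4126 CPM per kb in the mean (3605 to 4727 over the 6 libraries), where Ppy and Pyy averaged 0.0431 and 0.0947 CPM per kb. Sct, the gene of secretin, was at 217 CPM per kb (201 to 249) and Cck, the gene of cholecystokinin, at 109 CPM per kb (94.7 to 127), a range that overlaps that of Gcg (90.4 to 117). Gast, which shares its active carboxyl end with cholecystokinin, averaged 0.172 CPM per kb, and Gip, an incretin gene, 0.361 CPM per kb. Of the 13 genes, 9 were tested, 4 had too few counts and none passed, with a median log2 fold change of 0.03. Npy had a log2 fold change of -0.17 (edgeR, adjusted p = 0.54), and it passed without PTHrP replicate 2 (-0.24, adjusted p = 0.0389), a setting in which 213 genes passed against 9 with all libraries.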
